A study of Mus musculus with 13 samples.

Results

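Granzymes and the other genes of lymphocyte killing were followed through mouse liver during DDC-induced cholangitis. The set held 9 genes, taken by name from the 55353 gene symbols of the files: the granzymes Gzma, Gzmb, Gzmc, Gzmk and Gzmm, the pore-forming protein gene Prf1, the granule membrane protein gene Nkg7, the death ligand gene Fasl, and Serpinb9, which codes for an intracellular inhibitor of granzyme B. Their raw unique molecular identifiers (UMIs, each standing for 1 captured transcript) were counted in the 95563 barcodes with at least 1500 UMIs, called cells here. NK cells had at least 2 UMIs of Ncr1 and Klrb1c together and none of Cd3e, and numbered 2639. Cells with a UMI of Cd3e were split into 6132 CD8 T cells (Cd8a or Cd8b1 and no Cd4), 1855 CD4 T cells (Cd4 and neither Cd8 gene) and 5695 other T cells, which left 79242 other cells.

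The study profiled 13 single-cell libraries of C57BL/6J mouse liver. Mice had received chow with 0.1% DDC (3,5-diethoxycarbonyl-1,4-dihydrocollidine, a compound that injures bile ducts) for 0, 3, 5, 9, 19 or 25 days, written D0 to D25, and each day had 1 library from isolation protocol A and 1 from protocol B. The study counted days 18 and 19 together as D19. The STOP library came from protocol B after 18 days of the diet and 7 days of recovery. Mice were 6 to 12 weeks old, and the sources used here do not say how many went into each library, so that p-values measure the spread between libraries. Protocol A pooled sorted Cd45+, Lyve-1+, Pdpn+, Epcam+, endothelial and retinoid-containing cells with unselected live cells, and protocol B pooled live cells of a stellate cell preparation with Cd45+ Itgax+ Cd64-, Epcam+ and Cd3e+ Lyve-1- cells. Neither sort held a gate for NK cells, and the sorts set the shares of classes in a library, which are therefore not results. The protocols also differed in the index chemistry of the kit, so that isolation and index chemistry cannot be told apart.

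Cytotoxic lymphocytes kill by releasing granules onto a target cell, where perforin opens the membrane and lets granzymes enter. Granzyme B is a protease that starts apoptosis by cleaving caspases, granzymes A, C, K and M cut other substrates, and Fas ligand kills by a separate route through the receptor Fas. Killer cells and some of their neighbours carry Serpinb9 as protection from granzyme B that leaks into the cytosol. In liver, resident type 1 innate lymphoid cells (ILC1) and circulating NK cells both carry the NK receptor genes used in the gate here, and differ in their content of effector genes.

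Sums over a class were given as counts per 1000000 UMIs of that class (CPM), for a class in a library with at least 20 cells. That left 10 libraries for NK cells (44 to 616 cells), 11 for CD8 T cells (20 to 1523), 7 for CD4 T cells (97 to 481, protocol B and STOP) and 12 for other T cells. Total UMIs per library ranged from 29307190 to 108602421, and any pair of libraries shared at most 49 cell barcodes, or 0.519% of the smaller library. Markers outside the gate followed the labels in part. The summed NK markers stood at 5481 to 10440.2 CPM in NK cells and at 1262 to 3788 CPM in CD8 T cells, while the summed T cell markers other than Cd3e stood at 542 to 2016 CPM in NK cells and at 1986 to 5375 CPM in CD8 T cells. A UMI of Cd3d, Cd3g or Trac was present in 967 of the 2639 NK cells (36.6%), most often in D5 B (54 of 66, 81.8%) and D9 B (99 of 144, 68.8%), and least often in D0 A (7.38%). The main values of NK cells and the diet are therefore also given without D5 B and D9 B. At least 2 UMIs of another lineage were seen in 30.0% (NK) to 37.4% (other T) of the cells of a class, which were kept as no doublet caller was run.

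The gene starts of the paired granzyme genes are shown first, since the neighbours Gzma and Gzmk had opposite distributions over NK and CD8 T cells, whereas Gzmc and Gzmb were both higher in NK cells. Gzma (13:113093824-113100981) and Gzmk (13:113171630-113180965) lie 70648 bases apart on chromosome 13, and Gzmc (14:56231397-56241647) and Gzmb (14:56258836-56262334) lie 17188 bases apart on chromosome 14, all on the minus strand of GRCm38.p6. The 250 bases before each start, from RefSeq, are printed 5′ to 3′ on the gene's strand, with matches to motif letters in capitals. The windows are chr13:113100982-113101231 for Gzma, chr13:113180966-113181215 for Gzmk, chr14:56234658-56234907 for Gzmc and chr14:56262335-56262584 for Gzmb, and the start listed for Gzmc lies inside its annotated gene span.
Gzma: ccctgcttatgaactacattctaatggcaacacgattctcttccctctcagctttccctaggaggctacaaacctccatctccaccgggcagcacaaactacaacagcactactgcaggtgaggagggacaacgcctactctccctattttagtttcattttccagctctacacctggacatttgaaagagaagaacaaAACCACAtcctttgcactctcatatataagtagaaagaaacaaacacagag
Gzmk: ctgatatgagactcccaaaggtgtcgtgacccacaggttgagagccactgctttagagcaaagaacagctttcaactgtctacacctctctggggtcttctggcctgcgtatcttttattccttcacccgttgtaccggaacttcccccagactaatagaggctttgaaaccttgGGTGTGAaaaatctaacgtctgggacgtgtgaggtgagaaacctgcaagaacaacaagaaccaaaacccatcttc
Gzmc: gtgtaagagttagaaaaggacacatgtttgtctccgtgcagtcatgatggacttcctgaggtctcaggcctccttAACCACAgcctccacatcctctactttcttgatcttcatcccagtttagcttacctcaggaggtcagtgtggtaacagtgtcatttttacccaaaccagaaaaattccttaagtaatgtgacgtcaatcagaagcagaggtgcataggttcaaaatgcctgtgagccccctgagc
Gzmb: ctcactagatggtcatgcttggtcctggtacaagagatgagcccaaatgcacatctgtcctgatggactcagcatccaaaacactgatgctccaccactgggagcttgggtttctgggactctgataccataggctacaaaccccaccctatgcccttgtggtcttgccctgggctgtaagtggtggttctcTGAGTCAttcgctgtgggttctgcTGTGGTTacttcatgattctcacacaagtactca
The letters searched on both strands were GGTGTGA for T-box factors, TGANTCA for AP-1, TGTGGTT for RUNX factors and CCGGAAG for ETS factors, and the motifs do not overlap in these windows. Among 32851 promoter windows of this length, 3.33% held the T-box letters, 6.75% the AP-1, 4.40% the RUNX and 6.91% the ETS letters. Gzma held a RUNX match 51 bases before the start, Gzmc held one 175 bases before it, Gzmb held an AP-1 match at 58 and a RUNX match at 34 bases, and Gzmk held a T-box match at 75 bases. Of the other members, Nkg7 held a T-box match 13 bases before its start, and the windows of Gzmm, Prf1, Fasl and Serpinb9 held none of these letters. The matches are descriptions of sequence and not measured binding sites.

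The share of a member's transcripts in a class also follows the number of cells sorted, and is given as a description. NK cells held the largest share of Gzma, Gzmb, Gzmc and Prf1 transcripts. CD8 T cells held that of Gzmk, Gzmm, Nkg7 and Fasl, and cells outside the NK and T gates that of Serpinb9. Per UMI of a class, with libraries pooled, Nkg7 was 1381 CPM in NK and 1035 CPM in CD8 T cells. Serpinb9 was 757 CPM in NK cells and 42.1 CPM in cells outside the NK and T gates. NK cells held 48.7% of the 93147 Gzma UMIs, 38.9% of the 69178 Gzmb UMIs, 70.0% of the 22843 Gzmc UMIs and 43.1% of the 9385 Prf1 UMIs, although they were 2.8% of cells. CD8 T cells, 6.4% of cells, held 70.7% of the 4070 Gzmk UMIs, 60.0% of the 1752 Gzmm UMIs (31.6% were in cells outside the NK and T gates) and 44.0% of the 100354 Nkg7 UMIs. The 8831 Fasl UMIs were spread over CD8 T cells (30.1%), NK cells (27.7%) and other T cells (24.6%). Of the 50762 Serpinb9 UMIs, 51.2% were in cells outside the NK and T gates.

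**Figure D1:**
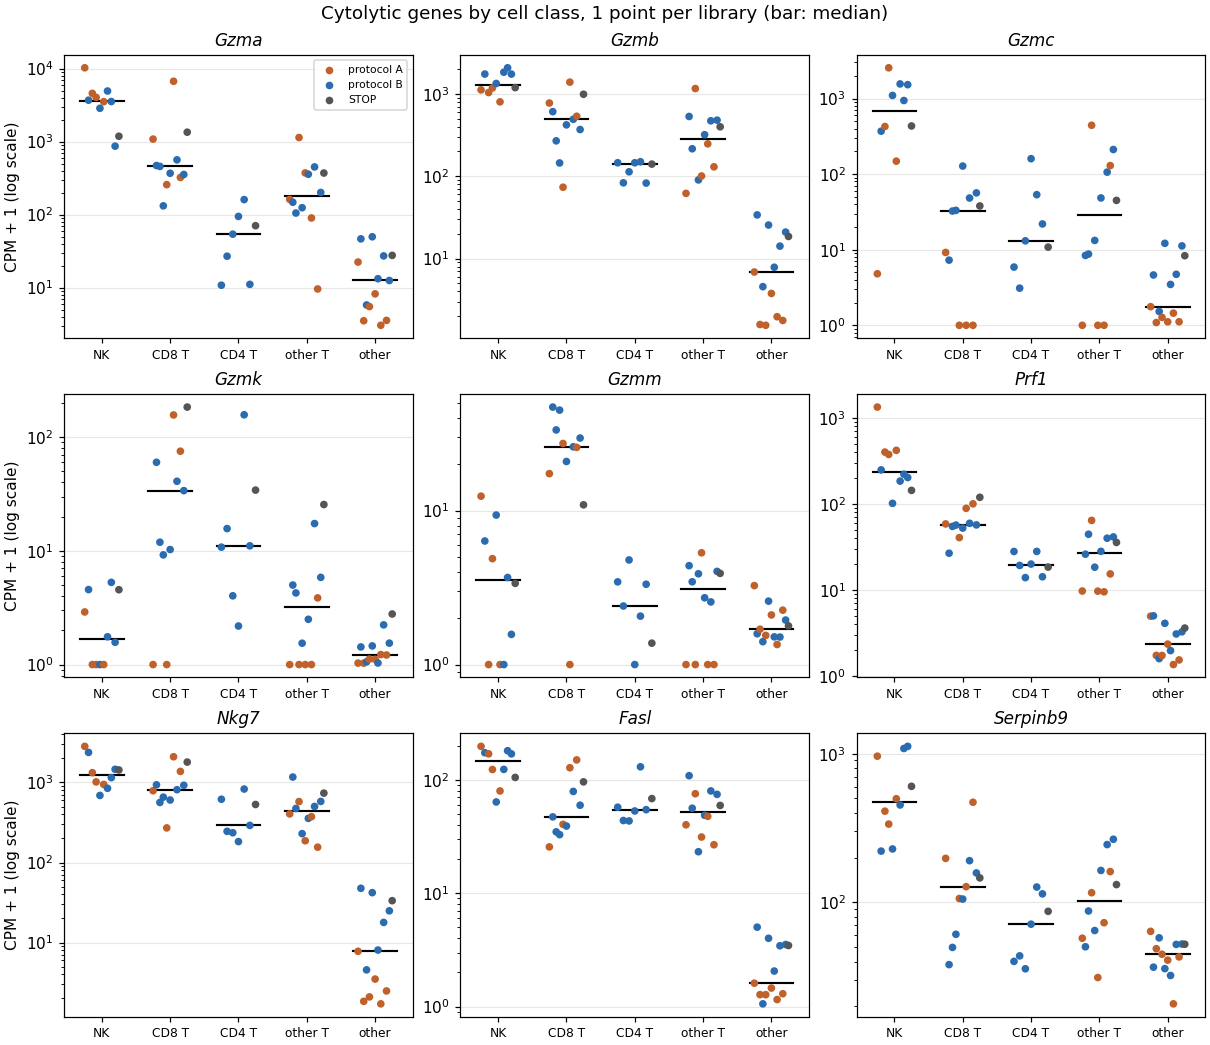
CPM plus 1 (log axis) of each of the 9 genes in NK, CD8 T, CD4 T, other T and other cells, with 1 point per library coloured by protocol and a bar at the median. Gzma, Gzmb, Gzmc and Prf1 have their highest median in NK cells, Gzmk and Gzmm in CD8 T cells, and Serpinb9 is the only member with a median above 40 CPM in other cells.

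Granzyme A, a protease of the tryptase type, was higher in NK than in CD8 T cells. Its level ranged from 865 CPM (D25 B) over a median of 3616 to 10259.8 CPM (D0 A) across the 10 NK libraries, and from 131 (D5 B) over 456 to 6710 CPM (D19 A, 20 cells) across the 11 CD8 T libraries. In CD4 T cells it stayed between 9.8 and 160 CPM. In the 8 libraries that held both classes, the difference was 2.68 ± 0.41 on the log2 scale (fold change ± SE, adjusted p = 0.000361), with STOP as the exception among libraries (1183 CPM in NK and 1345 CPM in CD8 T cells).

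Granzyme B, the member best known for starting apoptosis in target cells, followed the same order of classes. It ranged from 797 (D9 A) over 1258 to 2065 CPM (D19 B) in NK cells, from 72.3 (D9 A) over 489 to 1383 CPM (D19 A) in CD8 T cells, and from 81.4 to 149 CPM in CD4 T cells. It was higher in NK than in CD8 T cells in 8 of 8 libraries, by 1.74 ± 0.28 on the log2 scale (adjusted p = 0.00049). NK and CD4 T cells did not overlap.

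Granzyme C, a granzyme of the same chromosomal cluster, was the member most confined to NK cells by its share of UMIs. In NK cells of protocol A it was 3.8 CPM at D0, 426 at D3, 2552 at D5 and 148 at D9. In those of protocol B it was 369 CPM at D0, 1099 at D5, 1560.5 at D9, 941 at D19, 1525 at D25 and 433 in STOP, and D0 A stood far below all others. In CD8 T cells Gzmc ran from 0 over 31.5 to 127 CPM, and in CD4 T cells from 2.1 over 12.1 to 159 CPM. The difference between NK and CD8 T cells was 4.26 ± 0.26 on the log2 scale (adjusted p = 3.53e-08), with NK cells higher in 7 of 8 libraries. Of the 31-base words of Gzmc transcripts 14.8% were shared with other genes, mostly Gzme, so that reads could be split between them and its level is uncertain to that extent. For Gzmb the share was 1.35%, for Serpinb9 4.91% (with Serpinb9b), and for Gzma, Gzmk, Gzmm, Nkg7 and Fasl it was 0.

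Granzymes K and M, a trypsin-like and a methionine-cleaving protease, were highest in CD8 T cells and near 0 in NK cells. Gzmk was between 0 and 4.3 CPM in the 10 NK libraries, and between 0 and 183 CPM (median 32.9) in CD8 T cells. It was highest in STOP, D19 A (156 CPM) and D25 A (74.3 CPM), and lower than that in all protocol B libraries on the diet. The log2 fold change of NK against CD8 T cells was -4.70 ± 0.34, with 43 Gzmk UMIs in all NK cells. Gzmm was 0 to 11.4 CPM in NK cells and 0 to 46.1 CPM (median 25.0) in CD8 T cells. Its log2 fold change of NK against CD8 T cells was -3.25 ± 0.36, and NK cells were lower in 8 of 8 libraries. In CD4 T cells Gzmm stayed at or below 3.8 CPM, and Gzmk reached 156 CPM in D19 B while the other 6 libraries lay between 1.2 and 33.2 CPM.

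Perforin, which forms the pore, was higher in NK than in CD8 T cells in 8 of 8 libraries. Its NK levels with protocol A were 1334 CPM at D0, 399 at D3, 374 at D5 and 418 at D9. With protocol B they were 247 CPM at D0, 100.3 at D5, 183 at D9, 220 at D19, 201 at D25 and 142 in STOP, so that every protocol A library lay above every protocol B library. In CD8 T cells Prf1 ran from 25.6 over 55.9 to 118 CPM. The log2 fold change was 1.81 ± 0.32 (adjusted p = 0.00121).

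Nkg7, a granule membrane protein needed for efficient granule release, was found in all 3 of these classes. It was detected at 687 to 2825 CPM (median 1236) in NK, 270 to 2094 CPM (median 811) in CD8 T, and 182 to 827 CPM (median 290) in CD4 T cells. The difference between NK and CD8 T cells did not pass the test, at 0.64 ± 0.23 on the log2 scale (adjusted p = 0.0766), and NK cells were higher in 6 of 8 libraries. It passed under 6 of 17 alternatives. Among these, leaving out STOP and taking D0 to D25 libraries only are the same fit (0.80, adjusted p = 0.0241), counted separately. It also passed without D5 B (0.77, adjusted p = 0.0414), without cells holding UMIs of another lineage (0.49, adjusted p = 0.00809) and with DESeq2 (0.69, adjusted p = 0.0416), which called all 9 members and 16.4% of genes.

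Fasl and Serpinb9 were both higher in NK cells. Fasl ran from 62.7 over 145 to 196 CPM in NK, from 24.6 over 46.1 to 149 CPM in CD8 T and from 42.3 over 53.5 to 129 CPM in CD4 T cells, and the log2 fold change of NK against CD8 T cells was 1.15 ± 0.18 (adjusted p = 0.000509). Serpinb9 was 220 to 1119 CPM (median 474) in NK and 37.2 to 470 CPM (median 127) in CD8 T cells. The 8 paired libraries did not overlap for Serpinb9, with a log2 fold change of 2.21 ± 0.12 (adjusted p = 1.27e-08).

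In all, 8 of the 9 members were called between NK and CD8 T cells by edgeR's quasi-likelihood test with Benjamini-Hochberg adjustment, 6 higher and 2 lower in NK cells. The 2 lower, Gzmk and Gzmm, passed the filter on low counts through their CD8 T sums, so that these calls only describe their distribution. Of all 12704 genes tested 14.2% were called, 6.98% higher and 7.24% lower. Between NK and CD4 T cells (6 libraries) all 8 members tested were called, 7 higher and 1 lower, against 10.2% of genes (5.63% higher and 4.58% lower). Gzma (5.41), Prf1 (3.22), Gzmb (3.68) and Gzmc (4.92) were higher in NK cells on the log2 scale, as were Serpinb9 (2.89), Nkg7 (1.65) and Fasl (0.995), and Gzmk was lower (-3.90). Gzmk passed the filter on low counts there through its CD4 T sums, so that its call only describes its distribution, and Gzmm did not pass it. Between CD8 and CD4 T cells (7 libraries) 6 of 9 members were called, all higher in CD8 T cells, against 7.38% of genes (4.85% higher and 2.52% lower): Gzmm (4.41), Gzma (3.17), Gzmb (1.94), Prf1 (1.85), Nkg7 (1.36) and Serpinb9 (0.67). Gzmm, with 15 UMIs in all CD4 T cells, passed the filter there through its CD8 T sums, so that its call only describes its distribution. Gzmc (0.95, adjusted p = 0.0944), Gzmk (0.89, adjusted p = 0.381) and Fasl (-0.07, adjusted p = 0.809) were not called. Without D19 B, where CD4 T cells held 156 CPM of Gzmk, the Gzmk difference was 1.89 (adjusted p = 0.00563).

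**Figure D2:**
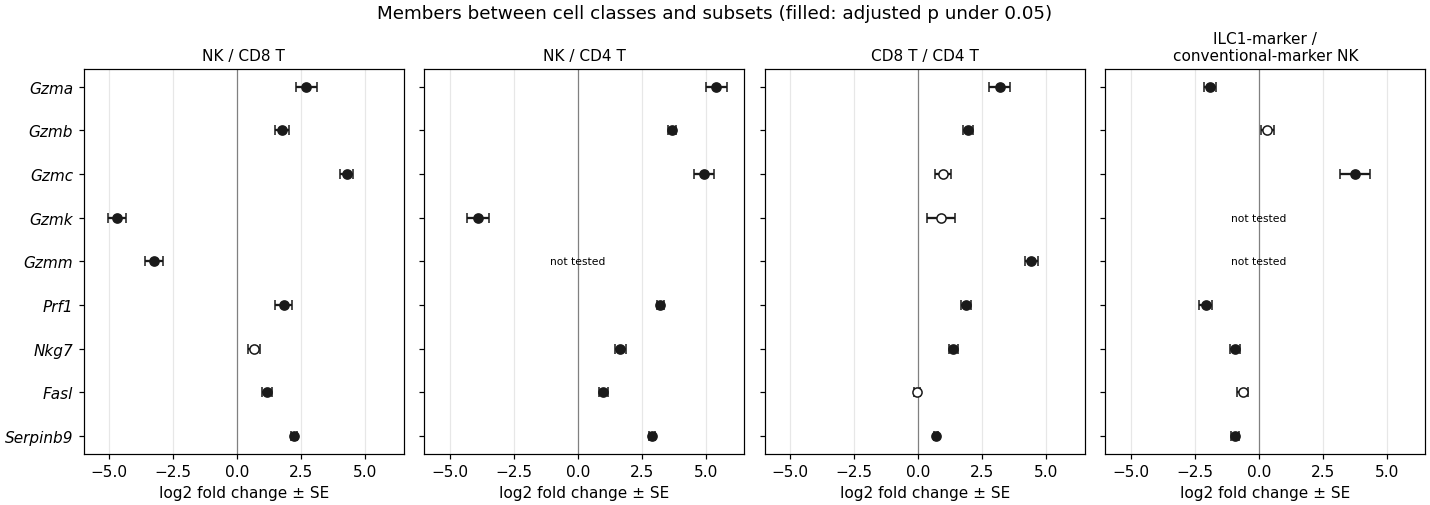
Log2 fold change ± SE of each member in 4 comparisons of paired libraries, with filled points where the adjusted p was under 0.05. Gzmk and Gzmm lie left of 0 for NK against CD8 T cells and the other members lie right of it, whereas in ILC1-marker against conventional-marker NK cells Gzmc alone is called higher.

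How much of these levels could be free RNA was read from cells that should lack the genes. After each cell was thinned to 1500 UMIs, the median share of cells with a UMI was 52.2% for Gzma, 60.3% for Gzmb, 77.0% for Nkg7, 31.9% for Prf1, 28.3% for Gzmc and 24.9% for Fasl in NK cells. In endothelial cells it was 0.773% for Gzma, 0.649% for Gzmb, 0.649% for Nkg7, 0.063% for Prf1, 0.041% for Gzmc and 0.051% for Fasl, and in epithelial cells it was 0.851% for Gzma and 0.140% for Nkg7. Before thinning the endothelial shares were 1.52% for Gzma and 1.38% for Gzmb, at median depths of 2315 to 9830 UMIs per endothelial cell against 2193 to 7186 per NK cell. For Gzmk the CD8 T share was 4.35% with an endothelial median of 0, and for Gzmm it was 3.67% against 0.079%. Single libraries went higher, above all D5 B, where Gzma was found in 7.89% of macrophages and monocytes, 5.85% of conventional dendritic cells and 13.6% of 44 neutrophils, and Gzmb in 22.7% of those neutrophils. In the CD4 T cells of D5 B the Gzma share was 9.54%, within the range of these cells, and is not read as expression. In the 24 epithelial cells of D0 B, Nkg7 was found in 8.33% and Gzmb in 4.17%. The NK share of Gzmk (median 0) was at the background and is not read as expression. That of Gzmm (0.426%) was above the endothelial median, and rested on 42 UMIs in all NK cells.

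Granzyme genes were also counted together in single cells, again at 1500 UMIs per cell. A median of 51.1% of NK cells (33.0% to 72.0% over libraries) held 2 or more of the 5 granzyme genes, against 11.1% of CD8 T cells (5.62% to 55.0%) and 2.37% of CD4 T cells. No granzyme UMI was found in 23.7% of NK, 70.9% of CD8 T and 84.2% of CD4 T cells. A granzyme and Prf1 were both detected in 28.4% of NK cells, with D0 A highest at 75.8%. Such shares depend on capture, so that a cell without a UMI may still have expressed the gene.

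NK cells were then split by markers, since the gate took in ILC1 and circulating NK cells. ILC1-marker cells (1386) held a UMI of Itga1, Cxcr6, Cd200r1 or Tnfsf10 and none of Eomes, Itga2, S1pr5 or Klra8, conventional-marker cells (367) the reverse, and 319 and 567 cells held both or neither. These subsets differed in which effectors they carried: ILC1-marker cells were high in Gzmc and low in Gzma and Prf1, and Gzmb was not called. Of the 7 members tested in 5 paired libraries (D0 B, D5 A, D19 B, D25 B and STOP) 5 were called, 1 higher and 4 lower in ILC1-marker cells, against 9.03% of 5340 genes (6.44% higher and 2.58% lower).

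Gzmc in ILC1-marker cells was 670 CPM in D0 B, 4129 in D5 A, 1150.4 in D19 B, 2059 in D25 B and 460 in STOP, and in conventional-marker cells it was 0, 0, 216, 298 and 41.7 CPM in the same order. The groups did not overlap, with a log2 fold change of 3.76 ± 0.58 (adjusted p = 0.00165). Prf1 ran the other way. It was 117, 131, 192, 187 and 131 CPM in ILC1-marker cells and 628, 1406, 441, 491 and 609 CPM in conventional-marker cells in that order, again without overlap (log2 fold change -2.07 ± 0.25, adjusted p = 0.000376). Gzma was lower in ILC1-marker cells in each of these libraries (log2 fold change -1.90 ± 0.23, adjusted p = 0.000367). The gap ran from 3203 against 5528 CPM in D19 B to 1481 against 12092.8 CPM in D5 A, with 634 against 2654 CPM in D25 B.

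Nkg7 (-0.94, adjusted p = 0.0101) and Serpinb9 (-0.95, adjusted p = 0.0029) were lower in ILC1-marker cells, and neither was called once cells with 2 or more UMIs of another lineage were left out (-0.27, adjusted p = 0.0691, and -0.30, adjusted p = 0.103). Gzmb (0.33, adjusted p = 0.53) and Fasl (-0.64, adjusted p = 0.0799) did not pass, although Gzmb passed without those cells (0.90, adjusted p = 0.00193). Median depth differed between the subsets in some libraries, for example 7958 UMIs per ILC1-marker and 3103 per conventional-marker cell in D5 A, and 3 of 6 stress and dissociation genes rose in the ILC1-marker cells (Egr1 1.63, Jun 1.05, Fos 1.01 on the log2 scale). The part of depth and of these stress genes in the differences was not tested.

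Other genes of the killing pathway were read from lists by role. Between NK and CD8 T cells, 5 of the 15 genes of granule processing and release tested were called, all higher in NK cells and against 14.2% of all genes called, among them Sytl2 (1.20 on the log2 scale), Stx11 (1.11) and the granule protease gene Ctsw (1.03). Gzme, the only other granzyme gene that passed the filter, was called higher at 3.27 against 0.0102 normalised CPM, with 42.1% of its 31-base words shared with other genes, so that its level is uncertain. It passed the filter through its NK sums, so that the call only describes its distribution. Of 9 death ligands and receptors 2 were higher (Tnfsf10, the TRAIL ligand, by 1.32, and Tnfrsf1a by 0.43) and 2 lower (among them Tnfrsf10b, the TRAIL receptor, -1.07). The protease inhibitors Serpinb9b (2.88) and Serpinb6b (1.70) were higher, 2 of 4. Among 10 transcription regulators 4 were higher, including Tbx21 (1.50) and Id2 (1.05), and 2 lower, including Tcf7 (-2.40). Of 5 chemokines and cytokines of effector cells 4 were higher, including Xcl1 (2.59), Ccl3 (2.48) and Ccl4 (2.02). None of 6 stress genes was called in that comparison. Against CD4 T cells, where 10.2% of all genes were called, NK cells were higher in 3 of 15 granule genes (Ctsw 2.06, Cst7 1.62, Sytl2 0.82), 2 of 4 inhibitors and 4 of 5 chemokines and cytokines (Xcl1 3.78 among them). They were higher in 3 and lower in 2 of 9 death ligands and receptors, and higher in 5 and lower in 2 of 10 regulators. CD8 T cells were higher than CD4 T cells in Ctsw (1.19) and in Cst7 (1.64), a gene for an inhibitor of granule cathepsins, and lower in 3 other granule genes, against 7.38% of all genes called. Of 10 regulators 3 were higher in CD8 T cells, among them Runx3 (0.86) and Eomes (2.70), T cell and cytotoxic lineage factors, and Zeb2 was lower (-0.46).

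The same lists were read between the NK subsets. The regulators Tcf7 (-1.55) and Irf8 (-1.74) and the chemokine Ccl5 (-0.77) were lower in ILC1-marker cells, Serpinb6a was higher (1.83) and Serpinb6b lower (-0.86), and of the granule genes the lysosomal membrane gene Lamp2 was higher (2.03). Tnfsf10 and Eomes defined the subsets and are not compared between them.

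No member was called between diet stages with edgeR. D0 libraries were compared with early (D3 and D5) and late (D9, D19 and D25) libraries within NK, CD8 T and CD4 T cells, with protocol as a term for the first pair of classes, and 0 members passed an adjusted p of 0.05 in any of the 9 comparisons with edgeR, of which those of CD4 T cells with D0 had 1 library at D0. The share of all genes called was small as well: 0.0132% (1 of 7559) for NK early, 0.291% for NK late and 0 for NK late against early, 0, 0.472% and 0 of 11437 genes for CD8 T cells, and 0.0286%, 0.115% and 0.00954% of 10480 genes for CD4 T cells. At an unadjusted p under 0.05, 3 of 7 members tested stood out for NK early (11.7% of all genes), 2 of 7 for NK late (13.4%) and 1 of 7 for NK late against early (6.27%). For CD8 T cells it was 2 of 9 in each of the 3 comparisons (7.91%, 14.7% and 3.40% of genes), and for CD4 T cells 0, 1 and 2 of 8 (13.1%, 16.4% and 6.15%). DESeq2 called 3 members for NK early, against 1.89% of genes, and none in the others.

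Those 3 were Gzmc, Prf1 and Nkg7. Nkg7 in NK cells was 2825 (A) and 2372 CPM (B) at D0, 1324, 1015 and 687 CPM in the 3 early libraries and 944, 844, 1148 and 1459.9 CPM in the 4 late ones, so that both D0 libraries lay above all 7 on the diet. The log2 fold change was -1.38 ± 0.40 early (adjusted p = 0.214 by edgeR and 0.0288 by DESeq2) and -1.26 ± 0.37 late (adjusted p = 0.212). Prf1 was -1.47 ± 0.31 early (adjusted p = 0.115 by edgeR and 0.00116 by DESeq2) and -0.88 ± 0.30 late (adjusted p = 0.262). Gzmc was 4.63 ± 1.39 early (adjusted p = 0.223 by edgeR and 0.0209 by DESeq2), with the D0 pair at 3.8 and 369 CPM. Leaving out D0 A gave 2.57, leaving out D0 B gave 8.37, and leaving out D5 A gave 3.29. Serpinb9 in NK cells differed in direction between the protocols. It was 961 CPM in D0 A and 410, 335 and 497 CPM in D3 A, D5 A and D9 A, against 220 CPM in D0 B and 228, 451, 1082 and 1119 CPM in D5 B, D9 B, D19 B and D25 B. Its late log2 fold change against early libraries was 1.49 ± 0.54 (adjusted p = 0.675). An alternative without D5 B and D9 B was added after the data were seen. Its early group was D3 A and D5 A, both of protocol A, for which D0 A is the only D0 library. The early values were 6.29 for Gzmc, -1.31 for Prf1 and -0.95 for Nkg7, the late values were 2.35, -0.90 and -1.22, and Serpinb9 was 1.36 in late against early libraries. None was called.

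The shares of the marker subsets in the NK gate differed by diet day and by protocol. Subsets were called on unthinned cells. Median NK depth was 2820 (D0 A) and 2193 UMIs (D0 B) at D0, and 3570.5 (D9 A) to 7186 UMIs (D9 B) on the diet. The part of depth in these shares was not tested. With protocol A, conventional-marker cells were 67.8% of NK cells at D0, 50.0% at D3, 36.1% at D5 and 36.4% at D9. With protocol B they were 20.9% at D0, 3.03% at D5, 4.86% at D9, 7.36% at D19 and 7.69% at D25. Within ILC1-marker cells alone, an alternative also added after the data were seen in which D0 is the single library D0 B, Prf1 was -0.04 early and 0.44 late, Gzmc 0.77 early and 1.11 late, and Nkg7 -1.57 early and -1.11 late on the log2 scale, with no member called (lowest adjusted p 0.0974, for Serpinb9 late at 1.85). In conventional-marker cells, with 22 to 101 cells per library and not tested between stages, Prf1 was 1660.1 (D0 A) and 628 CPM (D0 B), 991 and 1406 CPM in D3 A and D5 A, and 441 and 491 CPM in D19 B and D25 B. Gzmc was 3.40 and 0 CPM at D0 in these cells, 0 in both early libraries and 216 and 298 CPM late. Gzma was 8453 to 12774 CPM at D0, 9863 to 12093 CPM early and 2654 to 5528 CPM late. Nkg7 was 3321 to 3456, 2702 to 2742 and 1478 to 2242 CPM in that order. Gzmb was 883 to 1255 CPM at D0, 1116 to 2082 CPM early and 1553 to 2027 CPM late. Its mean share of cells with a UMI after thinning was 62.1%, 67.5% and 57.3% in that order. Serpinb9 was 332 to 1262, 597 to 875 and 1382 to 1791 CPM, and was highest late. Both late libraries of conventional-marker cells came from protocol B. Against D0 B, the 1 D0 library of that protocol, Prf1 was lower in both late libraries and Gzmc was higher. Summed stress genes were 7575 to 8839.7 CPM in NK cells at D0, 4293 to 6097 CPM early and 3611 to 5284 CPM late, and summed macrophage markers were 123 to 476 CPM at D0, 652 to 1253 CPM early and 1068 to 3402 CPM late. The part of those genes in the diet values was not tested, nor was that of the NK gate's threshold.

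The share of NK cells with a UMI was compared as well. After thinning, Gzmc was detected in 5.42% of NK cells on average over the 2 D0 libraries and 30.8% over the 7 diet libraries, Prf1 in 55.0% and 32.3%, and Nkg7 in 93.0% and 72.5%. Each had p = 0.05 in a two-sided exact permutation test within protocol, which is the smallest p that the 20 arrangements allow. These p-values are unadjusted. Without D5 B and D9 B, where 12 arrangements allow no p below 0.0833, exact permutation p was 0.0833 for Prf1 (36.4% on the diet) and Nkg7 (76.6%) and 0.167 for Gzmc (27.8%). Gzmm was also at 0.0833 (1.42% and 0.401%, exact permutation). Over all 7 diet libraries Gzma was at 69.6% at D0 and 55.4% on the diet (exact permutation p = 0.35). Gzmb was at 62.2% and 61.5% over the same libraries, with exact permutation p = 0.9. Without D5 B and D9 B the diet shares were 56.7% for Gzma and 62.5% for Gzmb. In CD8 T cells the lowest exact permutation p was 0.167 (Gzmc, unadjusted), where the 24 arrangements allow 0.0417. For CD4 T cells the 6 arrangements could not give a p below 0.167.

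**Figure D3:**
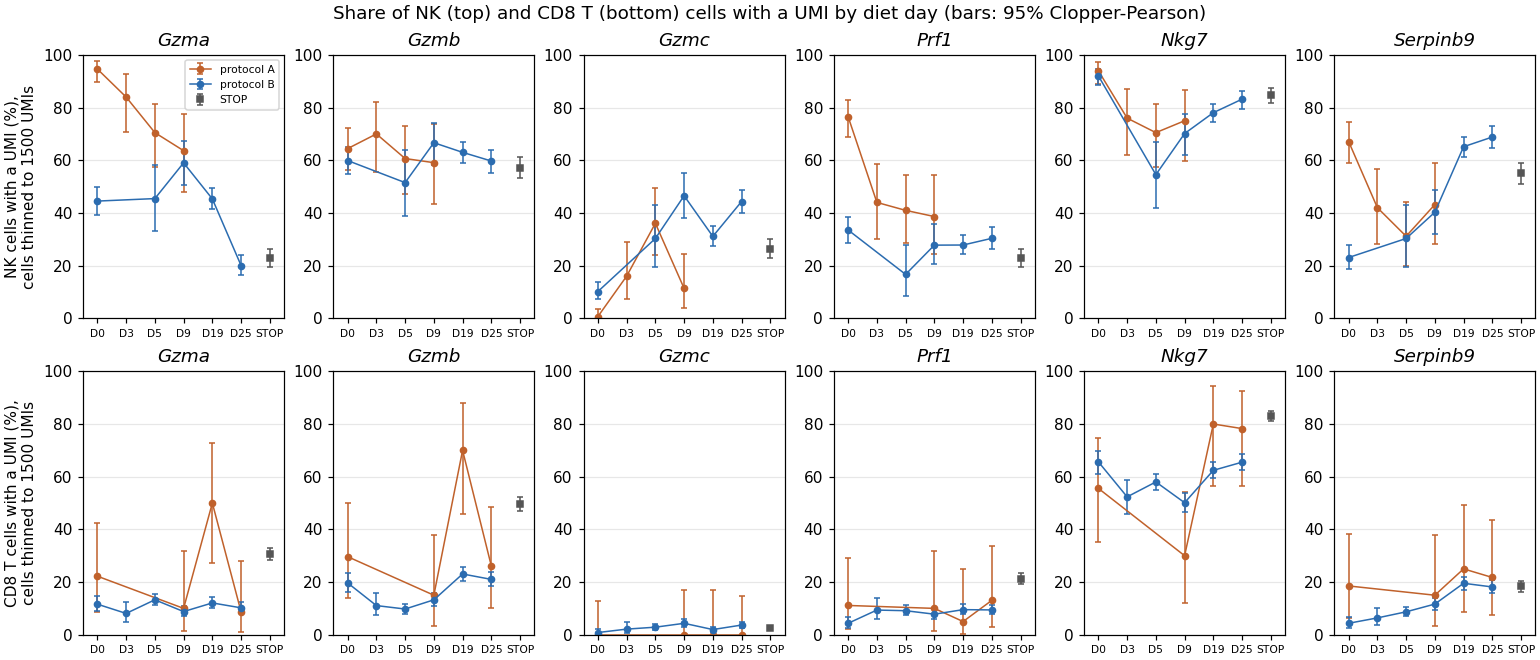
Share of NK cells (top) and CD8 T cells (bottom) with a UMI of 6 members after thinning each cell to 1500 UMIs, by diet day and protocol (lines join libraries of 1 protocol), with 95% Clopper-Pearson intervals for counting error. The D0 NK libraries are the highest for Nkg7, Serpinb9 in NK cells runs in opposite directions from D0 in the 2 protocols, and the D19 A library of CD8 T cells stands high for Gzma and Gzmb.

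In CD8 T cells the members at D0 and on the diet overlapped in most cases. Gzma was 1082 and 469 CPM at D0, 456 and 131 CPM early and 256, 367, 6710, 562, 322 and 353 CPM late, where the 6710 belonged to the 20 cells of D19 A. Of those cells 80.0% held at least 2 UMIs of another lineage, as did 75.0% in D9 A and 65.2% in D25 A, against 21.1% to 40.7% in protocol B libraries on D0 to D25. Gzmc was 8.2 and 6.3 CPM at D0, 31.5 and 32.2 CPM early and 0, 127, 0, 47.3, 0 and 55.5 CPM late, the zeros being the late protocol A libraries of 20 to 23 cells. The late log2 fold change of Gzmc was 3.03 ± 0.73 (adjusted p = 0.0909) and turned to -7.29 when D0 B was left out, which leaves D0 A as the only D0 library. It passed without D0 A (3.28, adjusted p = 0.046), without D25 B (3.19, adjusted p = 0.0413), at a minimum of 3000 UMIs (4.33, adjusted p = 0.0462) and with no filter, and not with DESeq2 (2.17, adjusted p = 0.218). Removal of cells with UMIs of another lineage, which left D0 B as the only D0 library and took its spread from the other groups, called Gzmb (-1.39), Gzmm (-1.54) and Serpinb9 (2.09) late, against 8.13% of 10637 genes. Gzmm (late -1.06, adjusted p = 0.256) and Gzmk (early -2.34, adjusted p = 0.557) also changed sign without D0 B. In CD4 T cells the D0 group was the single library D0 B, and Serpinb9 was 39.1 CPM there and 70.4, 126 and 113 CPM in D9 B, D19 B and D25 B, a difference that did not pass a test in which the lone D0 library is assumed to vary like the other groups (1.17 ± 0.46, adjusted p = 0.261).

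Whether NK and CD8 T cells differed in their response was tested as an interaction. No member was called, against 0.00782% of 12790 genes early and 0.0704% late. At an unadjusted p under 0.05, which 7.71% of genes met early and 6.25% late, 4 members stood out early (Prf1 -2.97, Gzmb 1.95, Nkg7 -1.70, Fasl -1.22) and 3 late (Prf1 -1.69, Gzmb 1.17, Nkg7 -0.84), with a median over all genes of -0.19 early. The early term rested on D5 B as the only early library with both classes, assumed to vary like the other groups, and 81.8% of its NK cells held a UMI of Cd3d, Cd3g or Trac. Without D5 B and D9 B no early term could be fitted, and the late values were -1.55 for Prf1, 1.36 for Gzmb and -0.63 for Nkg7, with no member called. When D9 A was left out, Gzmb, Prf1 and Nkg7 were called early and Prf1 and Nkg7 late, against 0.241% and 0.301% of 13281 genes.

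Of the other pathway genes only Klf2 and Xcl1 were called in a comparison of the diet. Klf2, a transcription factor of quiescent and circulating lymphocytes, was lower in late NK cells (-2.67, adjusted p = 0.049, at a mean of 247 against 1457 normalised CPM). Xcl1, a chemokine that attracts cross-presenting dendritic cells, was lower in late CD8 T cells (-2.54, adjusted p = 0.0195, at 35.8 against 183 normalised CPM). Summed stress genes in CD8 T cells were 6016 to 6508 CPM at D0 and 1980.5 to 4813 CPM late, and their part in the Klf2 and Xcl1 values was not tested. The other lists held no called gene in any of the 9 comparisons.

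The recovery library was set beside D19 B, the protocol B library nearest to it in days of diet (its title gives D19 and another of its labels day 18), with 1 library each and hence no test. In CD8 T cells most effectors stood higher after recovery: Gzmk was 183 CPM in STOP (95% Poisson interval 175 to 191) and 40.0 CPM in D19 B (35.2 to 45.2), a ratio of 4.58. Gzma (1345 against 562 CPM), Nkg7 (1796 against 811), Gzmb (985 against 489), Prf1 (118 against 58.4) and Fasl (94.8 against 77.9) were higher as well, and Gzmm (9.91 against 25.0), Gzmc (36.9 against 47.3) and Serpinb9 (145 against 190) were lower. All 9 pairs of intervals were apart, 6 up and 3 down, and by the same reading 32.4% of 14041 genes were higher and 13.6% lower in STOP. The intervals cover counting error only, since reads of 1 library hold no spread between mice. After thinning, 28.6% of CD8 T cells in STOP and 6.18% in D19 B held a Gzmk UMI, and 22.9% held both Gzmk and Gzmb in STOP, the highest of the 11 libraries.

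In NK and CD4 T cells most members were lower in STOP than in D19 B. In NK cells 6 members were lower in STOP than in D19 B, where 24.2% of 12341 genes were higher and 11.5% lower. Gzma was 1183 against 3540 CPM, Gzmc 433 against 941, Gzmb 1186 against 2065, Serpinb9 602 against 1082, Fasl 104 against 179 and Prf1 142 against 220. Nkg7 was higher (1431 against 1148 CPM), and the intervals of Gzmk and Gzmm overlapped. In ILC1-marker NK cells the same 6 were lower, Gzma at 1286 against 3203 CPM, where 19.9% of 11400 genes were higher and 9.75% lower. Of the NK libraries, D19 B held the highest Gzmb. In D25 B, also late on the diet, Gzma was below STOP in NK and in ILC1-marker cells (634 CPM in the latter). Gzmc, Prf1 and Serpinb9 in NK cells of D25 B were above STOP. In the 23 and 45 conventional-marker cells Gzmb (725 against 2027 CPM) and Gzmc were lower and Nkg7 was higher (2743 against 1478 CPM), and the intervals of the other 6 overlapped, where 5.25% of 3807 genes were higher and 3.18% lower. In CD4 T cells 6 members were lower, with 11.6% of 11373 genes higher and 11.4% lower. Gzmk was 33.2 against 156 CPM there, where D19 B stood apart. Among the CD4 T libraries other than D19 B, STOP had the highest Gzmk and the lowest was 1.2 CPM.

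**Figure D4:**
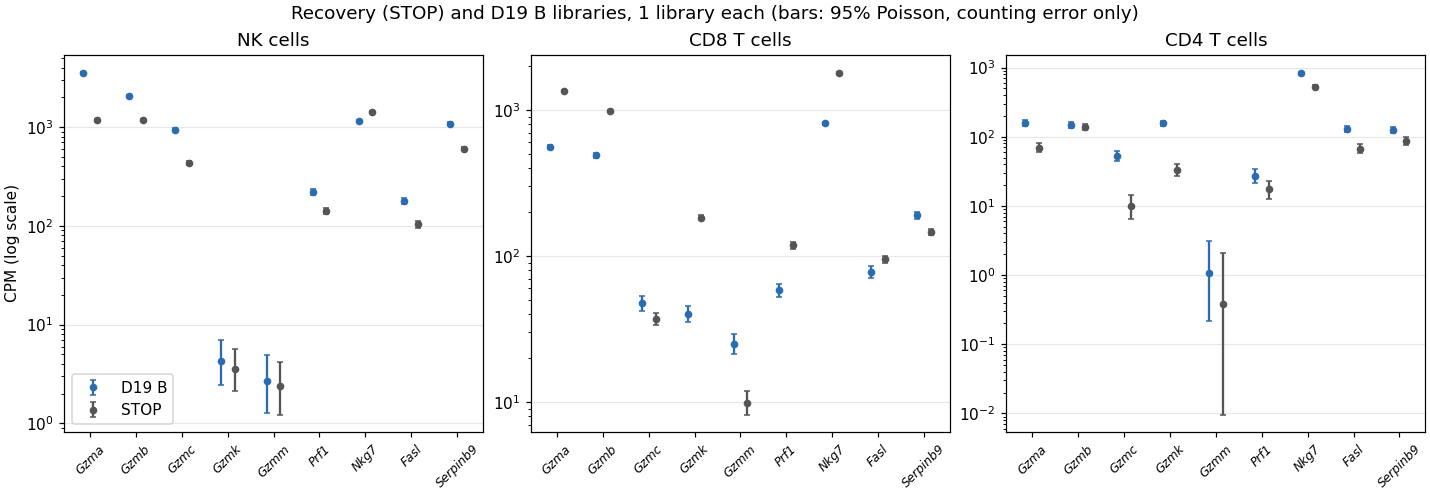
CPM (log axis) of the 9 members in the STOP library and in D19 B for NK, CD8 T and CD4 T cells, with 95% Poisson intervals for counting error. In CD8 T cells Gzma, Gzmb, Gzmk, Prf1, Nkg7 and Fasl lie higher in STOP, and in NK cells Gzma, Gzmb, Gzmc, Prf1, Fasl and Serpinb9 lie lower.

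Among named cell types outside the NK and T gates, Serpinb9 was followed further. Its median was 80.2 CPM in epithelial cells (Epcam, Krt19, Krt7), 57.1 in conventional dendritic cells, 42.5 in endothelial cells, 24.5 in neutrophils, 22.9 in macrophages and monocytes, 14.2 in plasmacytoid dendritic cells and 6.2 CPM in B cells. A UMI was held by 8.94% of epithelial and 5.52% of endothelial cells after thinning, above the 0.851% and 0.773% for Gzma in the same cells. In epithelial cells its share was 3.79% on average at D0 and 9.61% on the diet (exact permutation p = 0.08), and in conventional dendritic cells it was 11.8% and 6.62% (exact permutation p = 0.056). Both p-values are unadjusted and above 0.05, and the 5 other cell types compared had exact permutation p of 0.5 to 1. The D0 libraries were far apart, at 7.57% (713 cells) in D0 A and 0% (24 cells) in D0 B for epithelial cells, and at 19.6% (56 cells) and 3.90% (1360 cells) for conventional dendritic cells, so that each D0 mean depends on 1 small library.

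**Figure D5:**
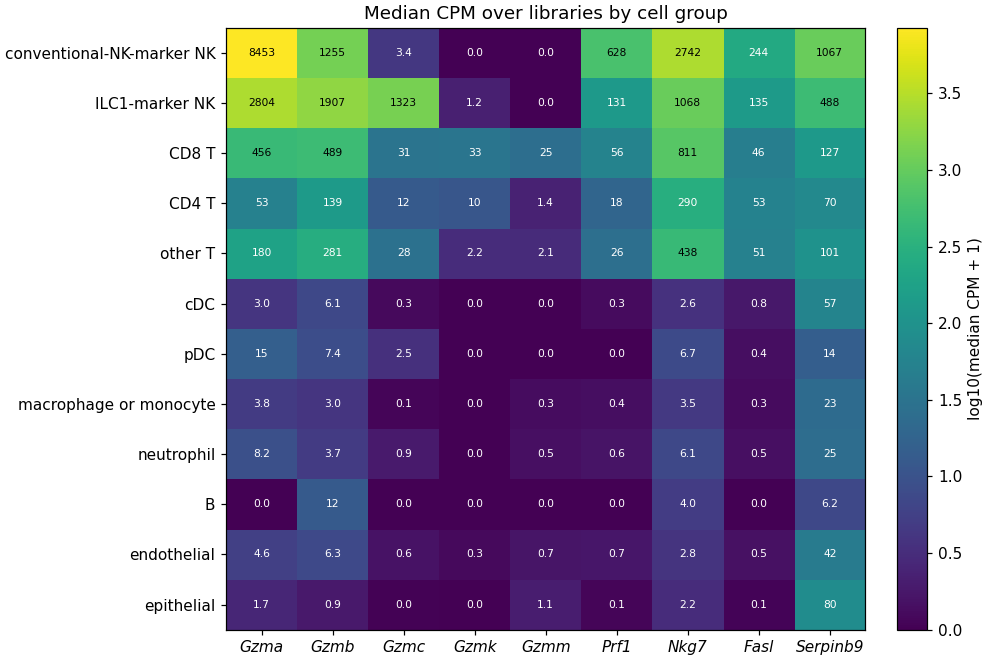
Median CPM over libraries of each member in each cell group, as log10 of the median plus 1. NK and T cell rows are bright for Gzma, Gzmb and Nkg7, and Serpinb9 is the column with signal in epithelial, dendritic and endothelial cells.

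The members also differed in which genes they resembled over the 53 sums of class by library. By Pearson's r on log2 CPM, given as a description, Nkg7 was most like Ctsw (0.98), Sh2d2a (0.98) and Txk (0.97), Fasl like Ctsw (0.97), Nkg7 (0.97) and Sh2d2a (0.97), and Gzmb like Ctsw (0.97), Nkg7 (0.96) and Cd160 (0.95). Prf1 was most like Gzmb (0.92), Tbx21 (0.92) and Klrc1 (0.91), and Gzma like Prf1 (0.91), Gzmb (0.90) and Chsy1 (0.89). Serpinb9 was most like Serpinb6b (0.90), Dennd4a (0.84) and Prf1 (0.83). Gzmc resembled the NK receptor genes Klrb1a (0.76), Klra5 (0.75) and Klri2 (0.73). Gzmk (Mgst2, 0.70) and Gzmm (Rnf138, 0.65) had no close match. The sums share libraries and depth, and sums of few cells carry more counting error.

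Members near the NK gate's threshold showed what the gate took in. Cells with a sum of 1 UMI of Ncr1 and Klrb1c (1022, counted as other cells) held 338 CPM of Gzma, 55.5 of Gzmc, 34.1 of Prf1 and 21.1 of Fasl. Cells with a sum of 2 (366) held 1872, 340, 184 and 91.3 CPM of the same genes, and cells with 3 or more (2273) held 2746, 1014, 242 and 149 CPM. These values pool all stages. In cells with a sum of 1, mean Gzma over libraries was 2790 CPM at D0, 348 early and 180 late. Prf1 was 397, 41.0 and 25.7 CPM and Nkg7 1123, 103 and 81.7 CPM in that order. Whether the gate took in the same cells at D0 and on the diet was not tested, which limits the diet values of NK cells.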

How the data were processed

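The 13 mouse liver libraries were made with 10x Chromium 3′ v3.1 kits, and the deposited matrices held raw UMI counts per gene and barcode, which the authors obtained with kallisto on GRCm38 (versions not given in the sources used here). They carried no filter on barcodes. Since 3′ counts are not per gene length, different genes were set side by side only as a description, such as Serpinb9 beside Gzma in epithelial cells. The members and lists were chosen with earlier results of these data known.

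Barcodes with at least 1500 UMIs were kept, the threshold of the study's methods, and classed by the gates given with the results. No row without a gene name was present, and no cell calling, doublet caller or correction for free RNA was applied. UMI counts were summed per class and library with at least 20 cells. Sums were compared with edgeR's quasi-likelihood test (TMM scaling, filterByExpr, Benjamini-Hochberg adjustment over all genes tested, threshold 0.05) in R 4.3.3 with edgeR 4.0.16, with protocol as a term in the NK and CD8 T comparisons of the diet and library as a block between classes. CD4 T cells had protocol B libraries only, so that no protocol term entered. The replicate numbers 1 and 2 stand for protocols A and B: deviations from the stage mean had a median correlation of 0.116 within and -0.219 between protocols in NK cells, and 0.0713 and -0.190 in CD8 T cells. CPM printed per library are on total UMIs of the class, and those called normalised are TMM-scaled means.

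Shares of cells with a UMI were computed after thinning each cell at random to 1500 UMIs and compared by exact permutation within protocol (Python 3.11.15, scipy 1.17.1). Intervals for STOP and D19 B are exact Poisson, and 95% intervals of shares are Clopper-Pearson. They cover counting error only. All 9 members are named in every class. A planned split of CD8 T cells by marker genes is not reported here. Of each list the called genes with the lowest adjusted p, up to 3, could be named, and for each member the 3 genes most alike in log2(CPM + 1) among genes of at least 20 CPM on average. On simulated counts with 200 changed genes the tests recovered 26.5% (NK and CD8 T early interaction) to 95.0% (NK against CD4 T) of them. Of the genes called on these counts, 2.70% (between the NK subsets) to 15.9% (both interactions) were not among the changed ones. DESeq2 1.42.0, no filter, a minimum of 3000 UMIs, stricter gates, removal of cells with UMIs of another lineage, libraries of 1 protocol, each library left out and fits without the block were the alternatives.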

Additional observations from a re-analysis of the deposited data

Results flagged for a closer look

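Among 16 groups of 4 to 10 libraries checked for a library apart from the rest (Dixon's criterion at the 95% level, which chance meets in about 1 of 20 groups), 5 results stood out. In late NK cells Prf1 was 418 CPM in D9 A, the only protocol A library of that group, with the nearest library at 220 CPM (n = 4). The check pooled both protocols, and Prf1 lay higher in every protocol A library of NK cells than in every protocol B one. In late CD8 T cells (n = 6) D19 A, with 20 cells, was apart for 3 members, and 80.0% of these cells held at least 2 UMIs of another lineage. Its Gzma was 6710 CPM, with the nearest library at 562 CPM, and its Gzmb was 1383 CPM, with the nearest at 532 CPM. Its Gzmm was 0.0 CPM, with the nearest at 19.8 CPM. Serpinb9 in late CD8 T cells was 470 CPM in D25 A, with 23 cells of which 65.2% held such UMIs, against 190 CPM in the nearest library. The libraries apart were all from protocol A.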

How the results depend on the processing

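Counts of members called under an alternative were within 1.5 times the reported count in 214 cases and outside it in 24. The share of all genes called in the same fit stands in brackets. For NK early DESeq2 called 3 members (1.89%) and no filter on low counts 3 (1.55%). For NK late the count was 1 with no filter (1.87%) and 1 with the stricter gate (4.79%). For NK late against early it was 2 with no filter (0.734%). With no filter, 1 member was called for CD8 T early (0.786%), 1 for CD8 T late (2.14%) and 1 for CD8 T late against early (0.786%). For CD4 T late against early it was 4 (0.987%), and for the late interaction 2 (0.628%). CD8 T late also gave 1 at a minimum of 3000 UMIs (3.69%). Leaving out a library gave 0 to 1 for CD8 T late (1 without D25 B, 0.964%) and 0 to 1 for CD4 T late against early (1 without D9 B, 0.682%). For the late interaction it gave 0 to 2 (highest without D9 A, 0.301%). Counts that rest on a single library in a group are left out here. These were protocol A alone in NK cells, CD4 T cells against D0, the early interaction, and CD8 T late without D0 A or without likely doublets. Without the replicate block, 1 member was called between the NK subsets, and the counts were 7, 6 and 4 for NK against CD8 T, NK against CD4 T and CD8 T against CD4 T cells. The cause of these changes was not tested. Values that turned in sign were Prf1 in NK late within ILC1-marker cells (0.44), and, when a library was left out, Fasl in CD8 T against CD4 T cells (-0.20 to 0.026, positive without D19 B) and 4 values of CD8 T cells that turned without D0 B: Gzmc early (-8.44 to 2.12) and late (-7.29 to 3.28), Gzmk early (-2.86 to 9.07) and Gzmm late (-1.22 to 0.24). DESeq2 called more genes in all: 143 against 1, 122 against 22 and 20 against 0 for NK early, late and late against early, 24 against 0 and 229 against 54 for CD8 T early and late, and 32 against 3, 138 against 12 and 16 against 1 for CD4 T cells. The comparison of CD4 T cells with D0 could not be fitted without D0 B. Depth limits Gzmk and Gzmm, with at most 4.3 and 11.4 CPM in NK cells, and classes of 20 to 27 cells in protocol A.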
